A study of Rattus norvegicus with 10 samples.

Results

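The gene set described here is the machinery of fatty acid oxidation in rat kidney cortex, together with the nuclear regulators that drive it. It was chosen by name and function from a list of 34 symbols, matched exactly to the gene names of the deposited expression table, with the most abundant row used where a symbol repeated. The choice was made with earlier results of these data known. Of the 34, 31 matched 1 of the 32545 rows of the table, and 30 passed the filter of a mean of at least 0.5 FPKM (fragments counted per gene, scaled for gene length and library size), as did 14508 rows in all. Acot1, Eci2 and Acaa1b were not analysed here, and Fabp1 was under the filter.

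Fatty acids that enter a cell are joined to coenzyme A, carried into mitochondria on carnitine, and shortened from one end in a repeating spiral that hands electrons to the respiratory chain. Very long, branched and dicarboxylic chains are first shortened in peroxisomes. PPAR-alpha, a nuclear receptor that binds fatty acids, raises transcription of many of these enzymes together with the coactivator PGC-1-alpha, and the proximal tubule, the main cell of the kidney cortex, depends on this pathway for most of its energy.

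Each library held RNA of kidney cortex from the Dahl salt-sensitive strain SS/JrHsdMcwi, genotype label Wildtype. All rats ate 0.4% NaCl at first, had telemeters implanted at 8 to 9 weeks of age and then ate 4% NaCl for 3 weeks. The diet of 5 of the 10 libraries also held 2% oxonic acid, a blocker of uricase, the enzyme that breaks down urate in rats; the other 5 are labelled vehicle. High salt was thus shared by both groups, and no library analysed here came from rats kept on the low-salt diet. The design text speaks of male and female rats and the labels give no sex for a sample; 4 Y-linked transcripts summed to between 57.6 and 71.3 FPKM in every library. The labels do not say that each library came from a separate rat, so p-values measure the spread between these samples.

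The libraries held 14536674 to 18508428 reads in genes. Proximal tubule markers were abundant throughout, for example Slc34a1, the phosphate transporter of that segment, at 1441 to 2021 FPKM. Vehicle library 4 was most often the extreme library over the whole table. It was the highest library for 22.4% and the lowest for 21.9% of all genes tested. Any other library reached at most 10.7% and 12.0%. The oxidation genes shared in this: their summed level was 3746 FPKM in vehicle library 4, 2399 FPKM in vehicle library 2 and 2530 to 2698 FPKM in the other 8. Vehicle library 4 also had the smallest share of reads from the mitochondrial genome, 9.23% against 11.3% to 13.5% elsewhere. It was not the only library far from others. A chi-square per degree of freedom, larger where 2 libraries differ more, ran from 24.1 to 39.7 for its pairs. For pairs of vehicle library 5 it ran from 11.6 to 49.1. The members are therefore counted and plotted both with all 10 libraries and without vehicle library 4. That library was picked from the values of the members themselves, so p-values, intervals and counts without it are descriptions only. Leaving it out raises the difference of each member that is high in it, while the low vehicle library 2 was kept. The tissue is bulk cortex, in which fewer cells of a type and less RNA per cell cannot be told apart.

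No member passed the test between the diets. Among the 30 members, the widest differences were 0.42 on the log2 scale for Ppara, the receptor gene, and -0.41 for Eci1, an isomerase of unsaturated chains. Limma with Benjamini-Hochberg adjustment over the 14508 genes called 0 of the 30 members, with adjusted p from 0.473 to 0.981, and the background share called was 0.0% in each direction. At an unadjusted p under 0.05, 1 member was higher with oxonic acid and 0 were lower, against 4.32% of all genes higher and 5.17% lower (9.49% in all). On the log2 scale, 21 of the 30 members had a lower mean with oxonic acid (70.0%, against 48.2% of all genes), with a median difference of -0.05 against 0.01 over all genes. Without vehicle library 4, 11 members were lower and 19 higher, against 47.9% of all genes lower, and the median was 0.04. At an unadjusted p under 0.05, 2 members were then higher and 1 lower, against 4.01% and 4.94% of all genes (8.95% in all). The 10 members that changed sign all went from lower to higher.

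Intervals were made for 1 gene at a time, so they set no joint bound on what could be missed. The 95% intervals of all 30 members lay within 1 log2 unit of 0, which held for 93.2% of all genes. Their outermost bounds were -0.93 and 0.90. Fabp1, Acot1, Eci2 and Acaa1b have no interval. For 27 members the interval lay within 1.5-fold. The median SE of a member's log2 difference was 0.103, against 0.104 over all genes. Without vehicle library 4 it was 0.0620, against 0.0973 over all genes. A p that misses the threshold does not show that the values did not differ.

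**Figure D1:**
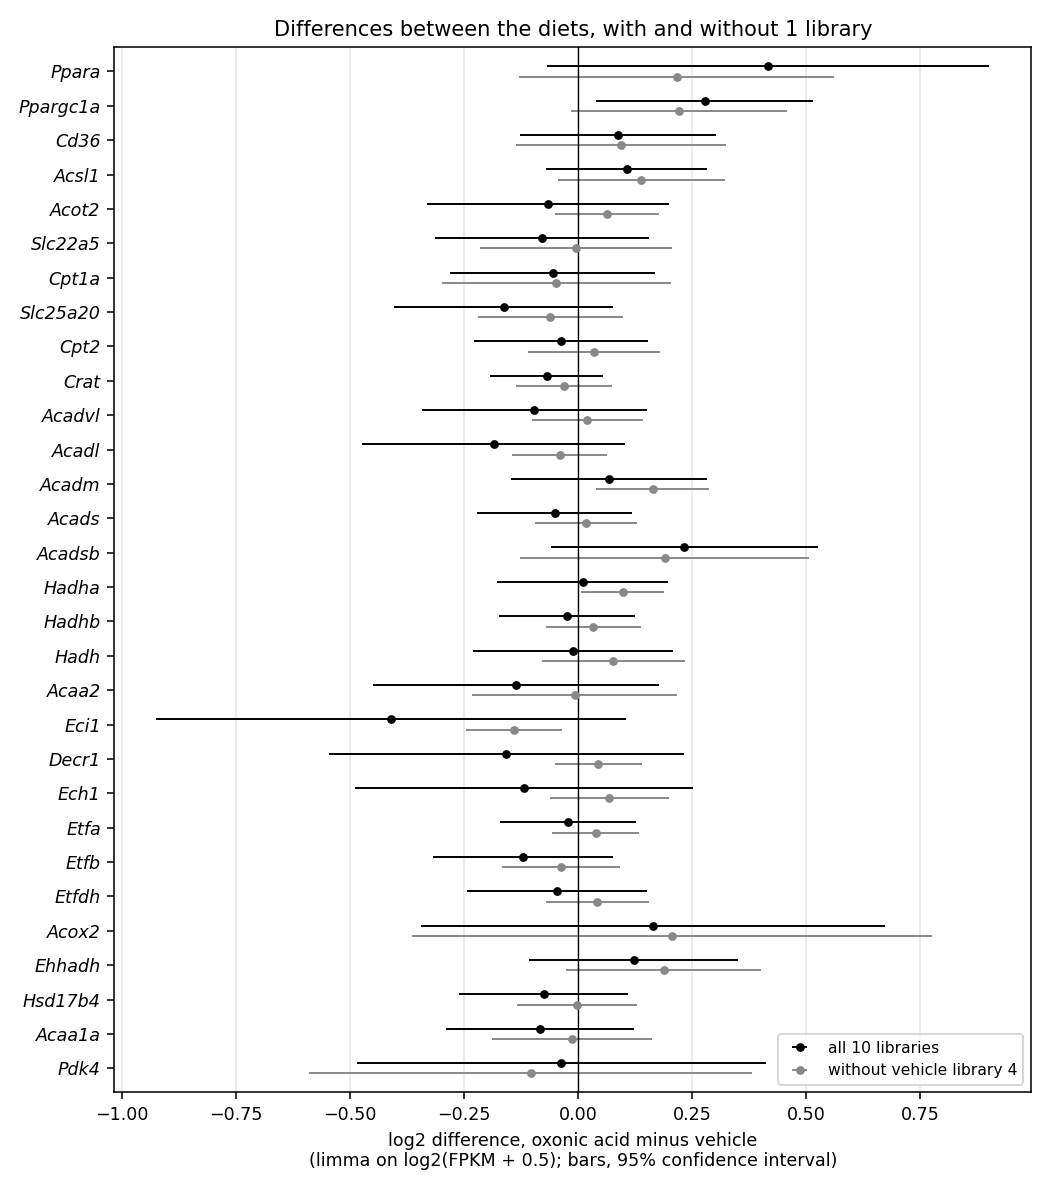
Log2 difference between oxonic acid and vehicle (horizontal axis, limma on log2 of FPKM plus 0.5) for the 30 members in order of role; points are estimates and bars 95% confidence intervals, black for all 10 libraries and grey without vehicle library 4. Most black points lie to the left of 0 (21 of 30) and most grey points to the right (19 of 30), and the grey bars are mostly shorter.

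Promoter sequences are shown first for 4 members: Eci1, the only member whose 2 groups of libraries did not overlap; Ppargc1a, the only member at an unadjusted p under 0.05; Acadm, the most abundant member; and Fabp1, the only one that held the paired motif searched for. Each is the 250 bases before the gene start in RefSeq's rat annotation, build GRCr8, 5′ to 3′ on the gene's strand. The deposited table uses other coordinates, of a genome build that the labels and headers do not name.
Eci1: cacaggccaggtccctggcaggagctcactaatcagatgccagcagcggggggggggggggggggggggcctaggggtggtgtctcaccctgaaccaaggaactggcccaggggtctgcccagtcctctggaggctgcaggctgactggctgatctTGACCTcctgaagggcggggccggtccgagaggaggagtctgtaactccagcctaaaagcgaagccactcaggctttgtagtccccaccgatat
Ppargc1a: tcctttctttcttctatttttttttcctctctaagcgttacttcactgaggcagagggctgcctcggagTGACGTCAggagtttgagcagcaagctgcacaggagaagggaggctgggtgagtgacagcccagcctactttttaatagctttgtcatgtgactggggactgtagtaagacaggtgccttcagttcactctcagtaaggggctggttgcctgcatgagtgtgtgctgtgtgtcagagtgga
Acadm: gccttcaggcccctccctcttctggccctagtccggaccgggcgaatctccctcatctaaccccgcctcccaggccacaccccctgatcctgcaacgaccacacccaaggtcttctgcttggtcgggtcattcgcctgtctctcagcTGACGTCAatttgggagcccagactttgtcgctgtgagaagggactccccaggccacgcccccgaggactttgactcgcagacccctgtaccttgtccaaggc
Fabp1: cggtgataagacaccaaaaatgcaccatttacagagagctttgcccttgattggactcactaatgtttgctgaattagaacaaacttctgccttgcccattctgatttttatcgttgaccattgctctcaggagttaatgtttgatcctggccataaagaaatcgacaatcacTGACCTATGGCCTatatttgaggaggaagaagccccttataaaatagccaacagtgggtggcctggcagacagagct
The regions are chr10:13961000-13961249, plus strand, for Eci1; chr14:63634058-63634307, plus strand, for Ppargc1a; chr2:245542865-245543114, minus strand, for Acadm; and chr4:104749090-104749339, plus strand, for Fabp1. The capitals mark matches to 3 sets of letters, searched on both strands. In Fabp1 they mark a pair of AGGNCA sites with 1 base between them, the spaced repeat that PPAR-alpha binds with its partner RXR, read on the opposite strand and starting 77 bases before the gene start. In Eci1 they mark the single site AGGTCA, also on the opposite strand, 94 bases before the start. In Acadm and Ppargc1a they mark TGACGTCA, the cyclic AMP response element, 103 and 181 bases before the start.

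Of the 34 members, 30 had a promoter in the RefSeq table. The paired motif was in 1 of the 30, against 0.368% of 33469 promoters. The single site was in 4, namely Acadvl, Eci1, Fabp1 and Hsd17b4 (13.3% of members, against 14.1% of all promoters); the Fabp1 match lies inside its paired motif. TGACGTCA was in 2, against 1.59% of all promoters. A match is a description of letters and says nothing about binding in this tissue.

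Oxidation enzymes were among the abundant transcripts of the cortex. The mean level of the 30 members ran from 2.00 FPKM for Cd36 to 243 FPKM for Acadm, with a median of 86.8 FPKM against 8.46 FPKM over all genes tested. Of the 30, 13 exceeded 100 FPKM on average and 15 were among the 1000 most abundant genes. The 4 members under 10 FPKM were Ppara, Acox2, Pdk4 and Cd36.

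**Figure D2:**
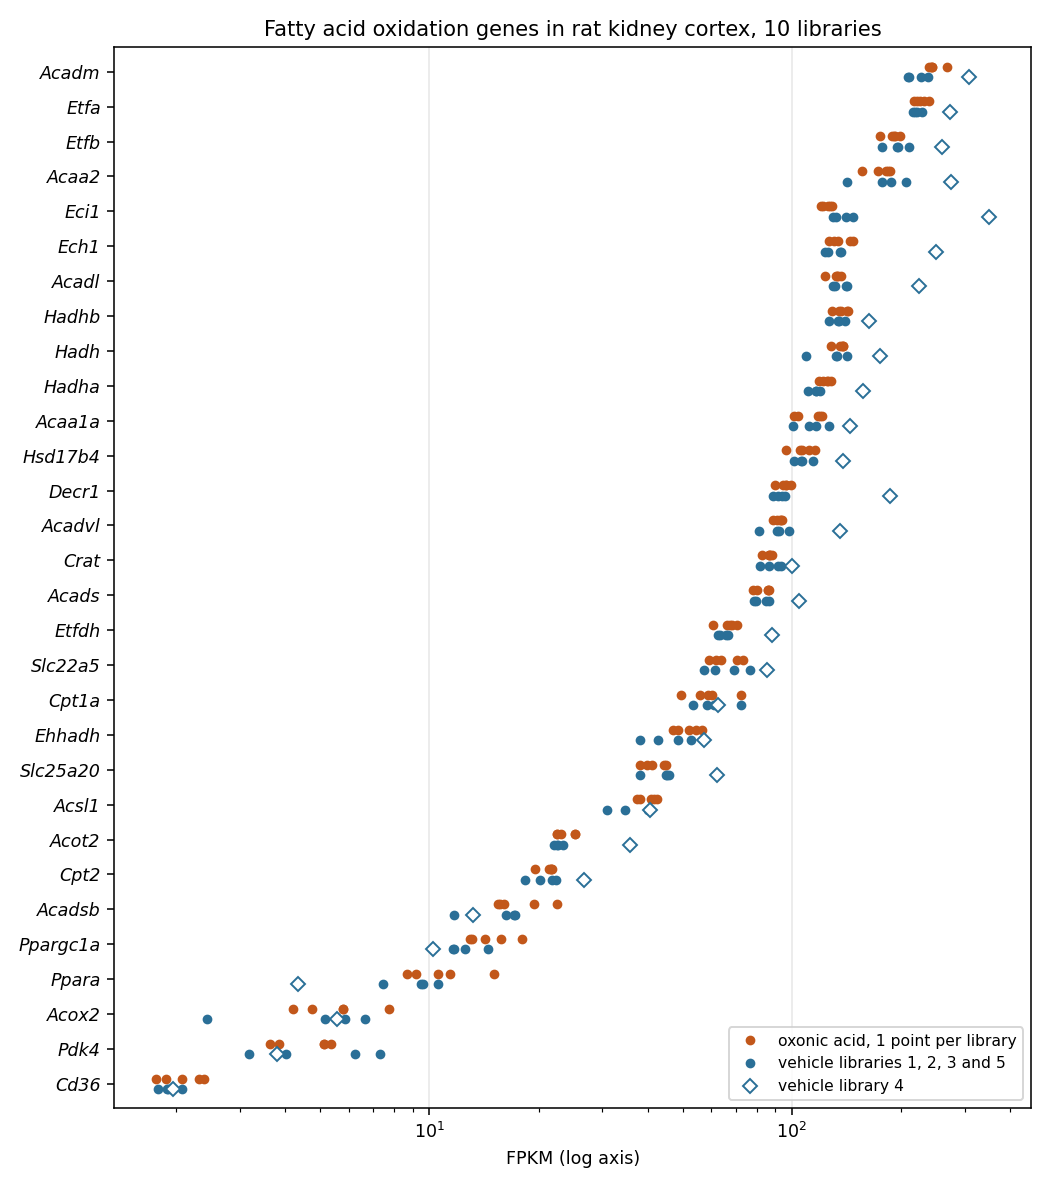
FPKM on a log axis for the 30 members, ordered by mean level; each point is 1 library, orange for oxonic acid, blue for vehicle, with vehicle library 4 as an open diamond. The diamond is the rightmost point for 22 of the 30 genes and the leftmost for Ppara and Ppargc1a.

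Among the regulators, Ppara, which encodes PPAR-alpha itself (ENSRNOG00000021463; chromosome 7, 126619196 to 126681752, plus strand), measured 8.66, 11.4, 9.17, 15.1 and 10.5 FPKM in oxonic acid libraries 1 to 5. In vehicle libraries 1 to 5 it measured 9.49, 7.42, 9.60, 4.34 and 10.5 FPKM. The groups overlapped, and the lowest value belonged to vehicle library 4. The log2 difference was 0.42 (SE 0.22, 95% interval -0.07 to 0.90, limma adjusted p = 0.568), and 0.22 without that library (adjusted p = 0.719).

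Ppargc1a, which encodes the coactivator PGC-1-alpha (ENSRNOG00000004473; chromosome 14, 63095720 to 63187009, plus strand), measured 14.3, 15.7, 13.1, 18.0 and 12.9 FPKM on oxonic acid and 14.5, 11.6, 12.5, 10.2 and 11.7 FPKM on vehicle. The means were 14.8 ± 2.12 and 12.1 ± 1.58 FPKM (SD, n = 5 each). The groups overlapped through vehicle library 1, and vehicle library 4 was again lowest. The log2 difference of 0.28 (95% interval 0.04 to 0.52) had an unadjusted p of 0.0261 and a limma adjusted p of 0.473; without vehicle library 4 it was 0.22, with an unadjusted p of 0.0639 and an adjusted p of 0.581.

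Both uptake and binding members were at low levels. Cd36, a fatty acid translocase of the cell surface, measured 2.39, 2.32, 1.87, 2.07 and 1.76 FPKM on oxonic acid and 1.88, 2.08, 1.90, 1.96 and 1.78 FPKM on vehicle. All 10 values lay within a narrow band, and the log2 difference was 0.09 (95% interval -0.13 to 0.30, limma adjusted p = 0.787). Fabp1, the liver-type fatty acid binding protein, had 0 reads in 7 of the 10 libraries and 8 reads in all. Its values were 0, 0, 0.252, 0 and 0 FPKM on oxonic acid and 0, 0.542, 0, 0.134 and 0 FPKM on vehicle, and 3 reads, the limit that a count of 0 allows, corresponded to 0.325 to 0.426 FPKM. A difference in Fabp1 under that limit was not detectable at this depth.

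Acsl1, which joins long-chain fatty acids to coenzyme A, measured 40.9, 41.6, 38.2, 42.4 and 37.3 FPKM on oxonic acid and 40.2, 31.0, 34.7, 40.7 and 40.3 FPKM on vehicle. Vehicle libraries 2 and 3 were lowest and the other 8 lay close together, with a log2 difference of 0.11 (limma adjusted p = 0.680). Acot2, a mitochondrial thioesterase that undoes that step, averaged 23.7 ± 1.39 FPKM on oxonic acid and 25.3 ± 5.86 FPKM on vehicle (SD, n = 5 each). Vehicle library 4 held 35.7 FPKM against 22.1 to 25.3 FPKM in the other 9, and the log2 difference went from -0.07 to 0.06 without it. Acot2 and its paralogs are near-identical in places, so its reads may be shared with them.

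Genes of carnitine handling had differences near 0. Slc22a5, the carnitine importer OCTN2, measured 59.0, 73.2, 62.0, 63.8 and 70.7 FPKM on oxonic acid and 69.2, 57.3, 61.3, 85.3 and 76.8 FPKM on vehicle. Cpt1a, the carnitine palmitoyltransferase of the outer membrane and the rate-limiting step of entry (ENSRNOG00000014254; chromosome 1, 218569510 to 218629678, plus strand), measured 60.2, 58.7, 55.9, 72.2 and 49.5 and 72.3, 58.2, 61.1, 62.7 and 53.4 FPKM in the same order. The groups overlapped for both genes, with log2 differences of -0.08 for Slc22a5 (95% interval -0.31 to 0.16) and -0.06 for Cpt1a (95% interval -0.28 to 0.17). Cpt1a did not stand out in vehicle library 4, at 62.7 FPKM against 49.5 to 72.3 FPKM elsewhere. Further along the shuttle, Slc25a20, the carrier of the inner membrane, averaged 41.7 ± 2.95 FPKM on oxonic acid and 47.2 ± 8.85 FPKM on vehicle. Cpt2, which returns the chain to coenzyme A, averaged 21.2 ± 0.946 and 21.9 ± 3.10 FPKM, and Crat, which acts on short chains, 86.2 ± 2.18 and 90.7 ± 6.99 FPKM (SD, n = 5 each). All 5 genes of this step had log2 differences below 0 with all libraries, down to -0.16 for Slc25a20, and limma called none. Without vehicle library 4 they were -0.06 for Slc25a20, -0.00 for Slc22a5, -0.05 for Cpt1a and -0.03 for Crat, and Cpt2 turned to 0.04.

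Acyl-CoA dehydrogenases open each turn of the spiral, each for a range of chain lengths. Acadm, for medium chains (ENSRNOG00000009845; chromosome 2, 260124418 to 260148589, minus strand), measured 269, 243, 244, 239.9 and 243 FPKM on oxonic acid and 238, 211, 227, 308 and 209 FPKM on vehicle. Vehicle library 4 was highest, and the other 4 vehicle libraries all lay below the 5 oxonic acid libraries. The gap was small, from 238.5 FPKM in vehicle library 1 to 239.9 FPKM in oxonic acid library 4. How many of all genes separate in this way was not counted. The log2 difference was 0.07 (95% interval -0.15 to 0.28, limma adjusted p = 0.837) with all libraries; without vehicle library 4 it was 0.16 (95% interval 0.04 to 0.29), with an unadjusted p of 0.0146 and an adjusted p of 0.476. Acadl, for long chains, averaged 132 ± 5.04 FPKM on oxonic acid and 154 ± 39.8 FPKM on vehicle (SD, n = 5 each), where vehicle library 4 held 224 FPKM; its log2 difference was -0.19 with that library and -0.04 without it. Acadvl, for very long chains, averaged 91.9 ± 2.11 and 99.9 ± 21.1 FPKM, with 136 FPKM in vehicle library 4 and log2 differences of -0.10 with it and 0.02 without. Acadsb, which acts on short branched chains from isoleucine, differed in pattern: it measured 19.4, 15.7, 15.5, 22.4 and 16.02 FPKM on oxonic acid and 17.2, 16.2, 17.1, 13.2 and 11.7 FPKM on vehicle, and vehicle library 4 was among the low values. Its log2 difference was 0.23 (95% interval -0.06 to 0.53, limma adjusted p = 0.592). Acads, for short chains, had a log2 difference of -0.05, and 0.02 without vehicle library 4.

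The trifunctional protein carries out the later steps of the spiral on long chains, and its subunits are encoded by Hadha and Hadhb. Hadha measured 129, 126, 119, 125 and 122 FPKM on oxonic acid and 119.8, 111, 116, 157 and 117 FPKM on vehicle. As for Acadm, vehicle library 4 was highest, and vehicle libraries 2, 3 and 5 were the lowest of all. The log2 difference was 0.01 with all libraries and 0.10 without vehicle library 4 (unadjusted p = 0.0388, limma adjusted p = 0.529). Hadhb followed Hadha closely, with a Hadhb to Hadha ratio of 1.04 to 1.203 over the 10 libraries; the gene models lie 6661 bases apart on opposite strands of chromosome 6. Hadhb went from -0.03 to 0.03 on the log2 scale without vehicle library 4, and Hadh, for shorter chains, from -0.01 to 0.08. Acaa2, the thiolase that releases acetyl-CoA, reached 276 FPKM in vehicle library 4 against 142 to 207 FPKM elsewhere, and had a log2 difference of -0.14 with that library and -0.01 without it.

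The auxiliary enzymes, which move or remove double bonds of unsaturated chains, showed the largest excess in vehicle library 4 of the member groups by role. Eci1, the enoyl-CoA isomerase (ENSRNOG00000008843; chromosome 10, 13797562 to 13810913, plus strand), measured 126, 127, 122, 120.3 and 129 FPKM on oxonic acid and 148, 130.4, 141, 351 and 132 FPKM on vehicle. All 5 vehicle libraries lay above all 5 oxonic acid libraries, which held for this member alone and for 0.965% of all genes in that direction. With 351 FPKM, vehicle library 4 stood at 2.73 times the median of the other 9. The log2 difference was -0.41 (SE 0.23, 95% interval -0.93 to 0.10, limma adjusted p = 0.591). Without vehicle library 4 it shrank to -0.14 with a narrower interval of -0.25 to -0.03 (unadjusted p = 0.0145, adjusted p = 0.476). The gap between the groups was small: the lowest vehicle value was 130 FPKM and the highest oxonic acid value 129 FPKM.

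Decr1, the dienoyl-CoA reductase, stood at 186 FPKM in vehicle library 4 and 88.7 to 99.4 FPKM in the other 9, a ratio of 1.97 to their median. Ech1, the dienoyl-CoA isomerase, stood at 249.7 against 124 to 147 FPKM, a ratio of 1.86. Unlike Eci1, both turned from lower to higher with oxonic acid when that library was left out, from -0.16 to 0.04 for Decr1 and from -0.12 to 0.07 for Ech1 on the log2 scale.

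Electrons from the dehydrogenases pass through the flavoprotein encoded by Etfa and Etfb to the ubiquinone oxidoreductase encoded by Etfdh. Etfa averaged 227 ± 8.63 FPKM on oxonic acid and 232 ± 23.8 FPKM on vehicle, and Etfb 189.6 ± 8.82 and 208 ± 31.1 FPKM (SD, n = 5 each). The ratio of Etfa to Etfb stayed between 1.04 and 1.26 over the libraries. Etfdh averaged 66.6 ± 3.81 and 69.3 ± 10.6 FPKM. All 3 were highest in vehicle library 4 and none was called, with log2 differences of -0.02, -0.12 and -0.05 for Etfa, Etfb and Etfdh. Without that library Etfa and Etfdh turned to 0.04 and 0.04, and Etfb was at -0.04.

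In peroxisomes, Ehhadh, the bifunctional enzyme for straight and dicarboxylic chains, measured 54.3, 52.2, 48.5, 56.6 and 46.9 FPKM on oxonic acid and 52.9, 42.6, 48.7, 57.1 and 38.1 FPKM on vehicle. The groups overlapped, with vehicle libraries 2 and 5 lowest and vehicle library 4 highest. Its log2 difference was 0.12 with all libraries and 0.19 without vehicle library 4. Acox2, the oxidase for branched chains and bile acid precursors, measured 7.75, 4.19, 5.76, 5.77 and 4.75 FPKM on oxonic acid and 5.13, 5.85, 6.63, 5.55 and 2.43 FPKM on vehicle. Its values spread widely within both groups (95% interval of the log2 difference -0.35 to 0.67). Hsd17b4, the second bifunctional enzyme, and Acaa1a, the peroxisomal thiolase, both had log2 differences of -0.08, and of -0.00 and -0.01 without vehicle library 4; Acaa1a has a near-identical paralog with which reads may be shared.

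Pdk4 encodes a kinase that switches off pyruvate dehydrogenase and so spares glucose when fat is burned. It measured 5.12, 5.34, 3.85, 5.10 and 3.64 FPKM on oxonic acid and 7.30, 3.18, 6.24, 3.80 and 4.02 FPKM on vehicle. The vehicle values split, with libraries 1 and 3 high and the other 3 low, and the log2 difference was -0.04 (95% interval -0.49 to 0.41, limma adjusted p = 0.966).

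**Figure D3:**
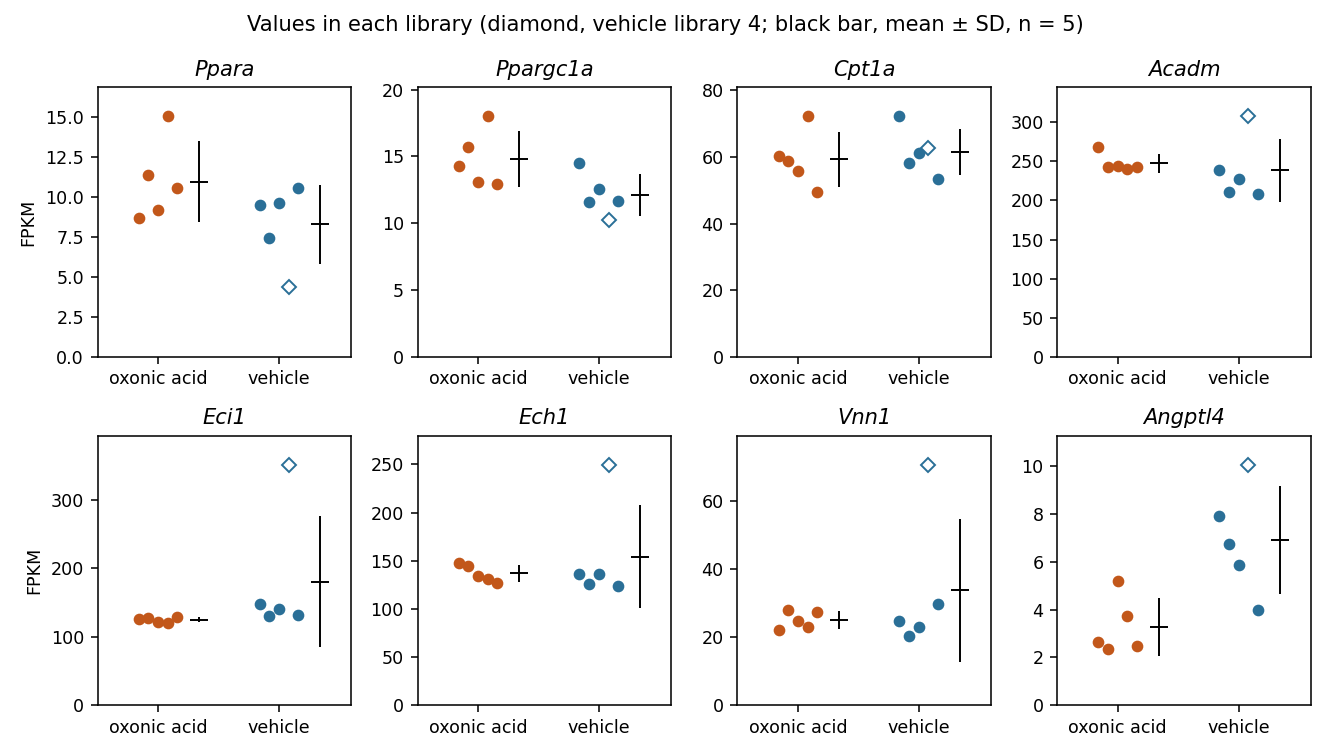
FPKM in each library for 6 members and for Vnn1 and Angptl4 from the related lists; orange points are oxonic acid, blue points vehicle, the open diamond vehicle library 4, and the black bar the mean ± SD of 5 libraries. Vehicle library 4 is lowest for Ppara and Ppargc1a and highest for Acadm, Eci1, Ech1, Vnn1 and Angptl4.

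Seen by library, vehicle library 4 was the highest of the 10 for 22 of the 30 members (73.3%, against 22.4% of all genes) and the lowest for 2, both of them regulators (against 21.9% of all genes). It was at least 1.2 times the median of the other 9 for 20 members (66.7%, against 19.6% of all genes) and at least 1.5 times for 6 (20%, against 5.05%). The median ratio was 1.26 over the members and 1.001 over all genes. At the other end, vehicle library 2 was the lowest library for 13 members (against 10.5% of all genes). Oxonic acid libraries were highest for 6 members and lowest for 8. Over all genes, each single oxonic acid library was highest for 7.56% to 10.5% and lowest for 6.74% to 12.0%. Across the 10 libraries the highest value of a member was typically 1.49 times the lowest (median over members). Without vehicle library 4 that figure was 1.22, against 1.40 over all genes.

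Other gene groups varied in vehicle library 4 as well, and their part in the result was not tested. The tubular injury list had a level of 0.69 log2 units there, in vehicle library 2 also 0.69, and -0.75 to 0.20 in the other 8. Of 9 injury markers, 8 passed the filter (Krt20 did not), and the summed FPKM of the list ran from 856 to 1679 on oxonic acid and from 1507 to 3641 on vehicle. The level of the convoluted proximal tubule list was -0.18 in vehicle library 4 and -0.24 to 0.25 in the others, and all 10 of its markers were detected. The straight proximal tubule list was lowest in vehicle library 5, at -0.57 against -0.04 to 0.26 elsewhere, with vehicle library 4 at -0.04. Peroxisomal members were also lowest in vehicle library 5, at -0.31 against -0.09 to 0.24 elsewhere. The endothelial list was lowest in vehicle library 4, at -0.39 against -0.08 to 0.22 elsewhere, and the distal convoluted tubule list stood at -0.45 there, with only vehicle library 2 lower at -0.54. Of 8 adipocyte markers, 3 passed the filter, and their level was 0.45 in vehicle library 4 against -0.49 to 0.60 in the others, with a summed FPKM of the list of 10.7 to 32.8 on oxonic acid and 13.98 to 30.5 on vehicle. Fabp4, the most abundant of them, measured 22.8 FPKM there and 5.58 to 22.3 FPKM elsewhere, while Lep stayed at or under 0.0765 FPKM and Plin1 at or under 0.613 FPKM. Between the diets, limma called none of these markers at an adjusted p. At an unadjusted p under 0.05, 7 of the 8 injury markers and 4 of 9 macrophage markers were lower with oxonic acid, against 5.17% of all genes. Higher at that p were 5 of 8 markers of collecting duct principal cells and 3 of 5 of the distal convoluted tubule. The same held for 2 of 7 endothelial and 1 of 7 thick ascending limb markers, against 4.32% of all genes. Without vehicle library 4 these counts were 7 and 4 lower, and 4, 3, 2 and 1 higher.

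**Figure D4:**
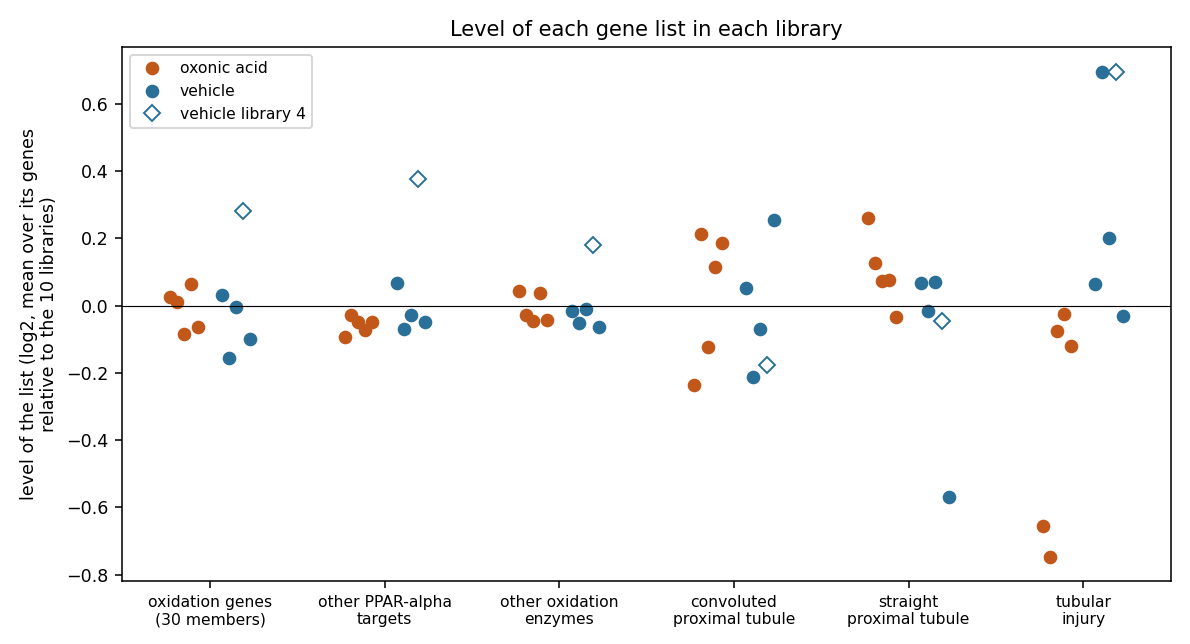
Level of 6 gene lists in each library, as the mean over the genes of a list of log2 values relative to the 10 libraries; orange points are oxonic acid, blue points vehicle, and the open diamond vehicle library 4. The diamond stands above all other libraries in the oxidation genes, the other PPAR-alpha targets and the other oxidation enzymes, within the range of the others in both proximal tubule lists, and level with vehicle library 2 in the injury list.

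The sample descriptions carry numbers that were put into 3 runs of near values, the second of which has a gap in it; the labels do not say whether they mark shared handling. The first run held 3 oxonic acid libraries and no vehicle library, so it gives no difference. In the second, with 1 oxonic acid and 3 vehicle libraries, the median log2 difference of the members was 0.08 and 8 of 30 were lower. In the third, with 1 and 2, it was -0.19 with 25 lower, and -0.00 without vehicle library 4. Ppargc1a was higher with oxonic acid in both runs, by 0.47 and 0.23, and Eci1 lower in both, at -0.21 and -0.74. The direction of the members' median therefore differed between the runs.

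Other genes of the pathway, from lists chosen by function with earlier results of these data known, were read from the same fit. Limma called none of them. Of 22 further regulators of the PPAR system, 13 were higher and 9 lower with oxonic acid, with 2 higher and 1 lower at an unadjusted p under 0.05, against 4.32% and 5.17% of all genes. Without vehicle library 4, 16 were higher and 6 lower, with 3 and 0 at that p. Ppard, the receptor PPAR-delta, averaged 4.90 ± 0.403 FPKM on oxonic acid and 3.99 ± 0.341 FPKM on vehicle (SD, n = 5 each), and the groups did not overlap, as for 0.944% of all genes in that direction. Its log2 difference was 0.27 (limma adjusted p = 0.388). Ncor1, a corepressor of nuclear receptors, also did not overlap, with a log2 difference of 0.28 (limma adjusted p = 0.401). Creb3l3, a membrane-bound transcription factor of lipid metabolism, had a log2 difference of -0.78 at low levels, with 2.44 FPKM in vehicle library 4. Rxra, the receptor's binding partner, and Esrra, a receptor that works with PGC-1-alpha, had log2 differences of 0.07 and -0.01, and Ppargc1b, the sister coactivator, 0.29 with 2.58 FPKM in vehicle library 4.

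Of 24 further PPAR-alpha targets past the filter, 6 were higher and 18 lower, 1 and 4 of them at an unadjusted p under 0.05 (4.32% and 5.17% over all genes). Without vehicle library 4 the split was 11 and 13, with 1 and 2 at that p. Angptl4, a secreted inhibitor of lipoprotein lipase and a sensitive PPAR target, measured 2.63, 2.33, 5.22, 3.73 and 2.48 FPKM on oxonic acid and 7.90, 6.75, 5.89, 10.1 and 3.97 FPKM on vehicle. Only oxonic acid library 3 overlapped the vehicle range, through vehicle library 5. The log2 difference was -0.97 (SE 0.25, 95% interval -1.51 to -0.43, limma adjusted p = 0.333), and -0.83 without vehicle library 4 (adjusted p = 0.422). Ucp2, a carrier of the inner mitochondrial membrane, averaged 31.5 ± 3.24 FPKM on oxonic acid and 40.5 ± 4.94 FPKM on vehicle (SD, n = 5 each) with no overlap, a log2 difference of -0.35 (limma adjusted p = 0.335). Both genes kept their direction without vehicle library 4, with a difference for Ucp2 of -0.33. Plin2, a lipid droplet coat protein, differed by -0.24, Slc27a1, a fatty acid transporter, by -0.16, and Pex11a, which divides peroxisomes, by -0.20; Lpl, the lipase that releases fatty acids from lipoproteins, was higher by 0.26.

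Vehicle library 4 was the highest of the 10 for 13 of these 24 targets. Vnn1, a pantetheinase, stood at 70.5 FPKM there and 20.4 to 29.8 FPKM elsewhere, 2.86 times the median, and Cyp4a1, a fatty acid omega-hydroxylase, at 50.1 against 23.6 to 33.1 FPKM. The log2 difference of Vnn1 between the diets was -0.26 with this library and 0.04 without it. Cyp4a2, a related hydroxylase whose reads may be shared with its close paralogs, stood at 2606.2 FPKM, 1.68 times the median of the others. Acot3, a peroxisomal thioesterase, had a log2 difference of -0.11.

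Of 47 further oxidation enzymes past the filter, 24 were higher and 23 lower, with 2 and 1 at an unadjusted p under 0.05 (4.32% and 5.17% over all genes); without vehicle library 4, 34 were higher and 13 lower, with 2 and 1 at that p. Acad11, an acyl-CoA dehydrogenase, did not overlap between the groups, with a log2 difference of 0.15. Pcca, a subunit of propionyl-CoA carboxylase, was at 0.14 and Acot7, a cytosolic thioesterase, at -0.41. The peroxisomal carnitine transferase Crot differed by 0.10, the muscle form Cpt1b by 0.16, and the very-long-chain synthetase Slc27a2 by -0.01. Echs1, the short-chain hydratase, split within the vehicle group: libraries 2 and 4 measured 16.3 and 15.1 FPKM and the other 8 libraries of both diets 1.198 to 2.68 FPKM. With 1 library left out, the log2 difference of Echs1 ran from -1.60 to -0.78. Its lowest limma adjusted p under any setting was 0.395. Of 11 genes of pyruvate dehydrogenase and its regulators, 8 were higher and 3 lower, none at an unadjusted p under 0.05, with Pdk2, the kinase that shares the task of Pdk4, at 0.13.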

How the data were processed

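The deposited table holds FPKM per gene for 10 libraries, computed by the authors; the labels' protocols describe Trizol extraction and poly-T selection and do not say whether the libraries kept strand. Per the submitters' processing notes, featureCounts 1.5.0-p3, StringTie 1.3.3b, fastp and HISAT2 2.0.5 were used. No label or header names the genome build or annotation. Values were whole multiples of 1 read (100% within 0.01), which gave reads per library. Values were tested as log2(FPKM + 0.5) with limma 3.58.1 in R 4.3.3 (mean-variance trend, 2-sided, Benjamini-Hochberg over all genes with a mean of at least 0.5 FPKM, threshold 0.05, 5 against 5 libraries). Fold changes on this scale understate the change of low genes. The script was tested on simulated data. Values in each library are given for 14 members listed by name and for others at an unadjusted p under 0.05 or whose groups do not overlap. Members and lists were chosen with earlier results of these data known. Some genes of the related lists are not reported here. Promoters came from RefSeq, GRCr8. Alternatives are in the closing section. In position, 6 members overlap another row of the table, none of which exceeded a mean of 3.28 FPKM.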

Additional observations from a re-analysis of the deposited data

Results flagged for a closer look

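In all, 110 groups of 5 libraries (members and other named genes) were looked at. A value was singled out where its gap to the nearest other library exceeded 0.71 of the range of the group. This held for 19 values. Chance alone does so in about 5% of groups of independent, normally distributed values. The groups here share the same libraries, so that share is no measure for the count. Of the 19 values, 13 were in vehicle library 4, 12 of them the highest of their group. Among members these were Acot2 at 35.7 FPKM, Acadl at 224 FPKM, Hadha at 157 FPKM, Eci1 at 351 FPKM, Decr1 at 186 FPKM, Ech1 at 249.7 FPKM, Etfa at 274 FPKM and Etfdh at 88.0 FPKM. Among other genes they were Cyp4a1 at 50.1 FPKM, Cyp4a2 at 2606.2 FPKM, Vnn1 at 70.5 FPKM and Acot7 at 27.2 FPKM; Ncor1, at 13.2 FPKM, was the lowest of its group.

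The other 6 values were spread over other libraries. Fabp1 was detected at 0.252 FPKM in oxonic acid library 3, the only library of its group with reads, and at 0.542 FPKM in vehicle library 2. Acadm stood at 269 FPKM in oxonic acid library 1, Hadh at 128 FPKM in oxonic acid library 3, and Cpt2 at 19.5 FPKM and Acot7 at 11.4 FPKM in oxonic acid library 5.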

How the results depend on the processing

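Under 23 settings (other pseudocounts, filters, variance models, scalings, limma voom on recovered reads, blocks, and each library left out), 0 members were called and their smallest adjusted p was 0.340. Over all genes, limma called 0 with all libraries (1377 at an unadjusted p under 0.05), limma voom 0, limma with array weights 1, and 0 to 1 with 1 library left out, the 1 being without vehicle library 1. Members at an unadjusted p under 0.05 numbered 1 with all libraries, 0 with array weights, 3 with the runs of near sample numbers as a block and 0 to 3 with 1 library left out: 0 without oxonic acid library 2 or 4 or vehicle library 2, and 3 without vehicle library 4 or 5. Lower members numbered 21, 11 to 22 with 1 library left out (11 without vehicle library 4), 15 with array weights and 8 within the second run. The median difference was -0.05, 0.00 with array weights, and -0.09 to 0.04 with 1 library left out. The labels do not say whether replicate numbers pair the libraries, and these values cannot decide it. Of 5 same-number correlations, 1 was over 0.1 (range -0.01 to 0.20), and 1 oxonic acid library correlated best with its own number. With the replicate block, limma called 0 genes, 1445 had an unadjusted p under 0.05, and 0 members did.

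Of the 30 members, 15 kept their sign under every setting, and 23 under the settings that left out no library. Array weights turned log2 differences to 0.024 for Acot2, 0.0086 for Slc22a5, 0.016 for Hadhb, 0.049 for Hadh, 0.012 for Etfa, 0.019 for Etfdh, 0.049 for Esrra, 0.050 for Cyp4a2, 0.0039 for Vnn1 and 0.014 for Slc27a2. Equal sums per library gave -0.015 for Hadha, and without mitochondrial genes 0.0076 for Hadh, 0.012 for Esrra and 0.013 for Slc27a2. The run block gave -0.011 for Hadha, 0.015 for Hadhb, 0.057 for Esrra, 0.039 for Slc27a2 and -0.14 for Cpt1b. With 1 library left out, these changed sign: Hadha (-0.028 to 0.097), Hadhb (-0.060 to 0.033), Hadh (-0.091 to 0.077), Acot2 (-0.11 to 0.063), Cpt1a (-0.13 to 0.0058), Cpt2 (-0.097 to 0.035), Acadvl (-0.16 to 0.020), Acads (-0.087 to 0.018), Decr1 (-0.22 to 0.044), Ech1 (-0.18 to 0.068), Etfa (-0.047 to 0.038), Etfdh (-0.080 to 0.042), Acox2 (-0.055 to 0.26), Pdk4 (-0.16 to 0.11), Esrra (-0.050 to 0.049), Cyp4a2 (-0.14 to 0.11), Vnn1 (-0.40 to 0.041) and Slc27a2 (-0.037 to 0.033). The cause of these changes was not tested.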
